A study of Mus musculus with 8 samples.

Results

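Poly(A)-binding proteins and the proteins that regulate them were followed through their mRNAs in mouse oocytes. The genes were those whose symbol in the count table was Pabpc1, Pabpc1l, Pabpc4, Pabpn1, Pabpn1l, Paip1, Paip2 or Paip2b. These are 8 of the 46078 genes in the table, and all 8 were among the 19241 genes with enough counts to be tested.

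Cytoplasmic poly(A)-binding proteins (PABPs) coat the poly(A) tail of an mRNA and contact the cap-binding initiation complex, which brings the ends of the mRNA together and favors translation. They also recruit deadenylases, the enzymes that shorten the tail. PABPC1 is the common form in somatic cells, PABPC1L (also called ePAB) is the form known from oocytes and early embryos, and PABPC4 is a further cytoplasmic form. PABPN1 binds new tails in the nucleus and stimulates poly(A) polymerase, whereas its relative PABPN1L is made in oocytes and is known for a role in the clearance of maternal mRNAs. PAIP1 stimulates PABP-dependent translation, and PAIP2 and PAIP2B inhibit it by taking PABP off the tail.

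RNA was sequenced from germinal vesicle (GV) stage oocytes, which are arrested in prophase of the first meiosis. The control libraries came from Zp3-Cre oocytes, which carry the Cre transgene, and the KO libraries from CNOT7&8 KO oocytes, in which floxed alleles of Cnot7 and Cnot8 were deleted by the same Cre (Cnot7 fl/fl, Cnot8 fl/fl). Both genes encode catalytic deadenylase subunits of the CCR4-NOT complex. There were 4 libraries of each genotype, each made from 100 oocytes pooled. The Zp3 promoter drives Cre in growing oocytes, so the floxed alleles are left intact before that growth phase and in somatic cells. According to the methods, the females had a C57BL/6J background, were 4 weeks old, and were primed with PMSG, a gonadotropin that stimulates follicle growth. The comparison asks how the mRNAs of the tail-binding machinery differ in oocytes that lack these deadenylases.

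Total counts per library ranged from 8639444 to 44092144, so that 3 counts correspond to between 0.0802 and 0.326 CPM (counts scaled to a common library size, after correction by the trimmed mean of M values, TMM). Cnot8 fell to 21.0% of its control level, from 168 ± 20.003 to 35.2 ± 1.40 CPM (SD, n = 4 libraries each), and Cnot7 to 77.1%, from 933 ± 77.3 to 719 ± 70.8 CPM. No library of either genotype overlapped the other group for these genes. These are mRNA values, and the paper reports by immunoblot that both proteins were depleted in the KO oocytes. The summed level of 13 oocyte markers was 21979 to 25289 CPM in control and 18243 to 21187 CPM in KO libraries. The summed level of 15 granulosa and cumulus markers was 81.4 to 109 CPM in control and 91.7 to 157 CPM in KO, and that of 8 theca, stroma and blood markers 87.9 to 110 and 76.0 to 90.8 CPM, with no count for the hemoglobin genes Hbb-bs and Hba-a1. The oocyte sum was spread over several genes, with Gdf9 the highest at 4400 and 4185 CPM. Among granulosa and cumulus markers, Cyp19a1 was the highest in control (58.4 CPM) and Kitl in KO (43.4 CPM, against 31.3 CPM for Cyp19a1). Pecam1 made up most of the theca, stroma and blood sum, at 96.2 CPM in control and 82.2 CPM in KO. Without Cyp19a1 the other 14 granulosa and cumulus markers summed to 28.1 to 41.5 CPM in control and 60.6 to 119 CPM in KO libraries, which did not overlap, and without Pecam1 the other 7 theca, stroma and blood markers summed to 1.16 to 2.69 and 2.28 to 2.86 CPM (both sums added after seeing the data). Of the 13 oocyte markers 2 rose and 7 fell past an adjusted p of 0.05, and of 6 theca, stroma and blood markers tested 1 rose (Ptprc) and 0 fell, where 31.2% of all tested genes rose and 24.1% fell. Control replicate 1 had the highest or the lowest control value for all 8 genes, and its deviations from its group went with those of KO replicate 4 (r = 0.37 across genes, which are not independent replicates). They went against those of KO replicate 3 (r = -0.33). Control replicate 1 and KO replicate 4 had the highest total counts of their groups (44092144 and 26784110). Values without control replicate 1 or KO replicate 4 are given where they change a call or move a value by more than 1.5-fold.

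Adenylation state is set through short elements at the 3′ end of the mRNA, so these were located first in the longest annotated 3′UTR of each gene (GENCODE vM21, GRCm38). The cytoplasmic polyadenylation element (CPE) was searched as TTTTAT, the Pumilio recognition element as TGTAAATA, and the polyadenylation signal as AATAAA or its variant ATTAAA, all on the sense strand. The 3′UTRs of Pabpn1l (263 bases) and Pabpc1l (499 bases) held no TTTTAT and no AATAAA. Each held a single ATTAAA near its end, 14 and 16 bases from the last annotated base, shown here because these are the genes that fell the most. In the windows below, read 5′ to 3′ on the mRNA strand, capitals mark the element found.
Pabpn1l end, chr8:122619473-122619502, minus strand: agaatgtaaattATTAAActtgaatatatt
Pabpc1l end, chr2:164050505-164050534, plus strand: tttgctttatatATTAAAaaatgctgcaaa
Pabpc1 CPE, chr15:36595837-36595866, minus strand: aacaaattaatgTTTTATagaccctgggaa
Pabpc1 end, chr15:36595664-36595693, minus strand: aattcttgctttAATAAAaattccttaaac
Pabpc4 CPE, chr4:123298832-123298861, plus strand: atttgatgccagTTTTATgttacaatcttg
Pabpc4 end, chr4:123298886-123298915, plus strand: ctgcatatATTAAATAAAtttactttccct
Paip1 last CPE, chr13:119457976-119458005, plus strand: tttaagtaatgtTTTTATctaatgtcaaat
Paip1 Pumilio element, chr13:119458036-119458065, plus strand: aaaagggttgctTGTAAATAtgtgcatgta

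The capitals in the Pabpc4 end mark an ATTAAA and an AATAAA that share bases. Pabpc1 and Pabpc4 each held 1 TTTTAT, which lay 188 and 76 bases from the end. Paip1 held 4 TTTTAT and 2 TGTAAATA, and Paip2b held 3 TTTTAT in a 3′UTR of 3435 bases. The 3′UTRs of Pabpn1 (874 bases) and Paip2 (932 bases) held no TTTTAT. Of all 15113 tested protein-coding genes with a 3′UTR of at least 50 bases, 56.2% held a TTTTAT, but among those of like length the share was 21.5% for Pabpn1l, 34.6% for Pabpc1l, 33.0% for Pabpc1, 32.2% for Pabpc4, 50.3% for Pabpn1, 52.1% for Paip2, 58.3% for Paip1 and 88.6% for Paip2b. Pabpn1 also ended with ATTAAA and without AATAAA, and 14.5% of the 15113 genes had only ATTAAA in their last 40 bases. A match is a description of the annotated sequence, not a site shown to act in oocytes.

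**Figure D1:**
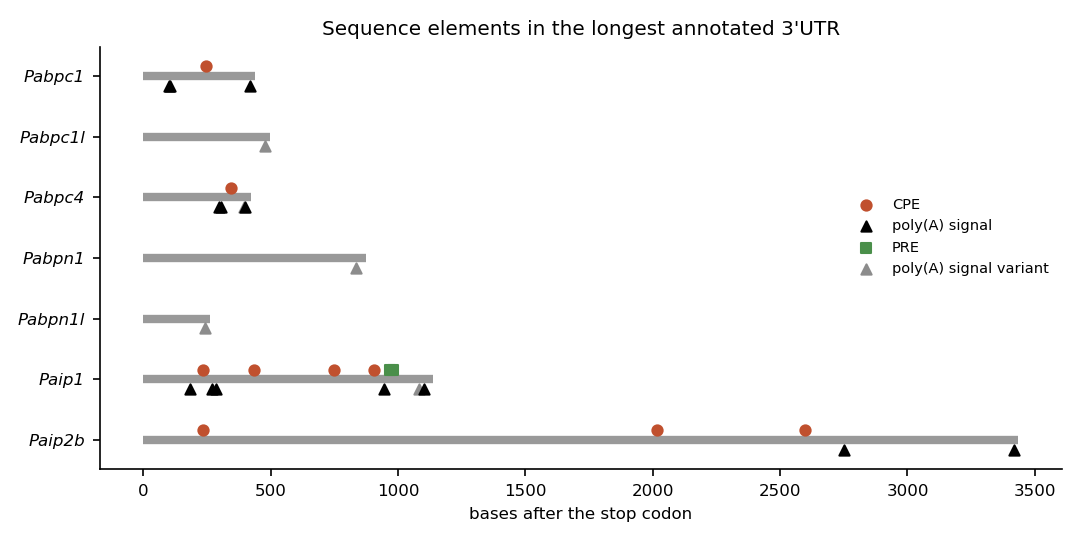
Position of sequence elements in the longest annotated 3′UTR of 7 of the genes, drawn to scale from the stop codon (x axis, bases). Circles mark TTTTAT (CPE), squares TGTAAATA (PRE), black triangles AATAAA and grey triangles ATTAAA; Pabpc1l, Pabpn1 and Pabpn1l carry only a grey triangle near the end.

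Across the 8 genes, 2 rose (Pabpc1 and Pabpn1) and 5 fell (Pabpc1l, Pabpc4, Pabpn1l, Paip1 and Paip2b) in KO oocytes past an adjusted p of 0.05 in edgeR's quasi-likelihood test, and Paip2 did not pass it. Of all genes tested, 31.2% rose and 24.1% fell past the same threshold, 55.2% in all. With a 2-fold change required as well, which defines a differentially expressed gene (DEG) here, Pabpc1 was a DEG that rose and Pabpc1l, Pabpc4 and Pabpn1l were DEGs that fell, against backgrounds of 23.8% and 6.56% (30.4% for either direction). The median log2 fold change was -0.54 for the 8 genes and 0.12 for all tested genes, which include many at low levels. Fold changes were also ranked from the lowest among the 2412 tested genes that averaged 100 CPM or more over all libraries. There Pabpn1l was 1st, Pabpc1l 10th, Pabpc4 81st, Paip1 580th, Paip2b 1109th and Paip2 1625th, whereas Pabpc1 and Pabpn1 lay below that level. Pabpn1l and Pabpc1l reached it in control libraries only. In 4 of the 5 genes that fell, every KO library lay below every control library, and in Pabpc1 every KO library lay above. Of all tested genes, 21.4% had all KO libraries below and 27% had all above, 48.4% together. In pooled oocytes, fewer cells of a type and less RNA per cell cannot be told apart, and a CPM value is a share of the RNA sequenced.

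**Figure D2:**
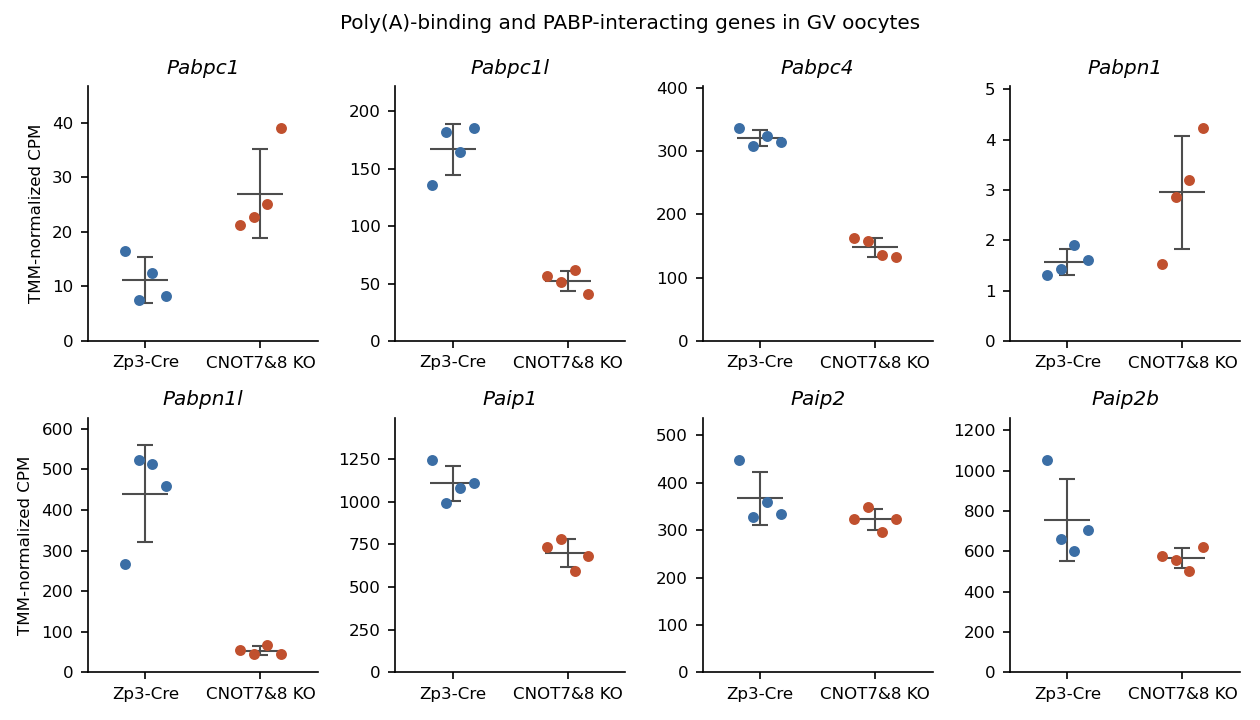
TMM-normalized CPM of the 8 genes in each library (y axis from 0; 4 Zp3-Cre control libraries in blue, 4 CNOT7&8 KO libraries in red), with the mean and SD in grey. Pabpn1l fell from a mean of 440 to 53.9 CPM and Pabpc1 rose from 11.2 to 27.0 CPM, whereas the groups overlap for Pabpn1, Paip2 and Paip2b.

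Pabpn1l (ENSMUSG00000069867, chr8:122619471-122622739, GRCm38, minus strand), whose mRNA end is printed above, showed the deepest decrease of the 8 genes. It stood at 266, 523, 514 and 458 CPM in control replicates 1 to 4 and at 55.1, 45.8, 68.2 and 46.4 CPM in KO replicates 1 to 4. The lowest control library was thus far above the highest KO library, and control replicate 1 lay well below the other control libraries. The mean went from 440 ± 120 to 53.9 ± 10.4 CPM (SD, n = 4), which is 8.17-fold lower. The log2 fold change was -3.03 ± 0.22 (SE), with an adjusted p of 6.12e-07 in edgeR's quasi-likelihood test. Among the 2412 tested genes that averaged 100 CPM or more over all libraries, it had the lowest log2 fold change, and among all 19241 it was the 33rd lowest. Only its control libraries reached 100 CPM. Without control replicate 1 the log2 fold change was -3.21.

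Its nuclear relative Pabpn1 (ENSMUSG00000022194, chr14:54892500-54898169, plus strand) was barely detected and moved the other way. Control libraries had 1.31, 1.43, 1.90 and 1.60 CPM and KO libraries 1.52, 2.86, 3.21 and 4.22 CPM, from between 14 and 124 counts each. KO replicate 1 lay within the control range, so the groups overlapped. The log2 fold change was 0.97 ± 0.30 (SE), with an adjusted p of 0.0162 in edgeR's quasi-likelihood test, while the exact permutation test over libraries (two-sided, 70 assignments) gave p = 0.0857. Without KO replicate 4, the highest library, the log2 fold change was 0.76 and the adjusted p 0.0589 in edgeR's quasi-likelihood test. The gene shares 651 bases of exon with the readthrough gene Gm20521 on the same strand, which had 0 to 2 counts per library, and how reads in these bases were assigned is not given in the sources used here.

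Among the cytoplasmic forms, the oocyte gene Pabpc1l (ENSMUSG00000054582, chr2:164025450-164050538, plus strand) was lower in every KO library. Its control values were 136, 182, 165 and 185 CPM, and its KO values 56.5, 51.5, 61.5 and 40.9 CPM. The groups were separated by a wide gap, with the lowest control value again in replicate 1 and the lowest KO value in replicate 4. The mean went from 167 ± 22.3 to 52.6 ± 8.77 CPM (SD, n = 4), that is to 31.5% of control, with a log2 fold change of -1.67 ± 0.15 (SE) and an adjusted p of 2.93e-06 in edgeR's quasi-likelihood test. It ranked 10th lowest among the 2412 genes that averaged at least 100 CPM over all libraries, a level that only its control libraries reached. Among all 19241 tested genes it was the 334th lowest.

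Pabpc4 (ENSMUSG00000011257, chr4:123262351-123298925, plus strand) was the cytoplasmic form with the highest level in both genotypes. It varied little within groups, at 335, 308, 324 and 313 CPM in control and 163, 158, 136 and 133 CPM in KO libraries. All KO values were below all control values. The mean went from 320 ± 12.2 to 148 ± 15.3 CPM (SD, n = 4), 46.1% of control, with a log2 fold change of -1.12 ± 0.10 (SE) and an adjusted p of 4.38e-06 in edgeR's quasi-likelihood test. The change was under 2-fold when libraries were scaled by their total counts alone (-0.84) or by TMM on genes of at least 10 CPM (-0.87). Near-identical copies of Pabpc4 elsewhere in the genome, 10 of them in the count table, together had 36 to 76 counts in control libraries. In KO libraries they had 40 to 252 counts. These were at most 7.34% of the reads counted for Pabpc4 and its copies. How reads that match more than 1 of these genes were assigned is not given in the sources used here, so their number is not known.

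Pabpc1 (ENSMUSG00000022283, chr15:36595661-36609668, minus strand), the somatic form, was the scarce cytoplasmic gene in these oocytes and the one that rose. Control libraries had 16.5, 7.50, 12.5 and 8.23 CPM and KO libraries 21.3, 22.7, 25.1 and 39.0 CPM. Every KO library was above every control library, with control replicate 1 the highest of its group and KO replicate 4 the highest of all. The mean went from 11.2 ± 4.18 to 27.0 ± 8.12 CPM (SD, n = 4), 2.41-fold higher, with a log2 fold change of 1.27 ± 0.27 (SE) and an adjusted p of 0.00165 in edgeR's quasi-likelihood test. The log2 fold change was 1.53 without control replicate 1 and 1.07 without KO replicate 4. Of the 15 granulosa and cumulus markers, 14 were tested, of which 5 rose (Fshr, Inha, Inhba, Hsd3b1 and Kitl) and 1 fell (Cyp19a1), against 31.2% and 24.1% of all tested genes. Foxl2, a defining granulosa gene, was at no more than 0.109 CPM in any library, Inha went from 6.86 ± 2.31 to 25.9 ± 14.96 CPM and Kitl from 16.004 ± 3.63 to 43.4 ± 10.3 CPM. Summed over all 15 markers, the libraries of the genotypes overlapped, at 81.4 to 109 CPM in control and 91.7 to 157 CPM in KO. The sums separated, with KO higher, when Cyp19a1, the 1 tested marker called as falling, was left out. That choice was made after seeing the data, and no other marker of this list was left out in its place. Of the markers then left, Kitl and Inha had the highest KO means. The methods describe stripping cumulus cells from oocytes with hyaluronidase and pipetting. The part of somatic RNA in the rise of Pabpc1 and Pabpn1 was not tested.

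Among the PABP-interacting genes, the activator Paip1 (ENSMUSG00000025451, chr13:119428601-119458218, plus strand) fell while remaining abundant. It stood at 1246, 992, 1083 and 1110 CPM in control and at 735, 784, 593 and 681 CPM in KO libraries. The highest KO library was below the lowest control library. The mean went from 1108 ± 105 to 698 ± 81.9 CPM (SD, n = 4), 63.0% of control, with a log2 fold change of -0.67 ± 0.12 (SE) and an adjusted p of 0.000423 in edgeR's quasi-likelihood test. This is short of 2-fold.

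The inhibitor Paip2 (ENSMUSG00000037058, chr18:35598617-35617187, plus strand) did not pass the test. It stood at 448, 328, 360 and 335 CPM in control and at 324, 350, 296 and 323 CPM in KO libraries. The groups overlapped and the spread was set largely by control replicate 1. The log2 fold change was -0.19 with a 95% interval from -0.44 to 0.07 and an adjusted p of 0.201 in edgeR's quasi-likelihood test, so a decrease to about the size seen in Paip2b cannot be told from no change. Its sign turned when libraries were scaled by their total counts alone (0.10) or by TMM on genes of at least 10 CPM (0.072).

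The related inhibitor Paip2b (ENSMUSG00000045896, chr6:83805401-83831741, minus strand) lay close to the threshold. Control libraries had 1053, 659, 602 and 705 CPM and KO libraries 577, 559, 504 and 622 CPM. KO replicate 4 lay above control replicate 3, so the groups overlapped, and control replicate 1 stood far above all others. The mean went from 755 ± 203 to 565 ± 48.9 CPM (SD, n = 4), with a log2 fold change of -0.42 ± 0.16 (SE), an adjusted p of 0.0425 in edgeR's quasi-likelihood test and an exact permutation p of 0.0571. Without control replicate 1 the log2 fold change was -0.21 and the adjusted p 0.0689 in edgeR's quasi-likelihood test, and the call was lost as well without control replicate 4 or KO replicate 1, 2 or 3. Without both control replicate 1 and KO replicate 4 the log2 fold change was -0.26 and the call was kept, with an adjusted p of 0.0166 in the same test.

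**Figure D3:**
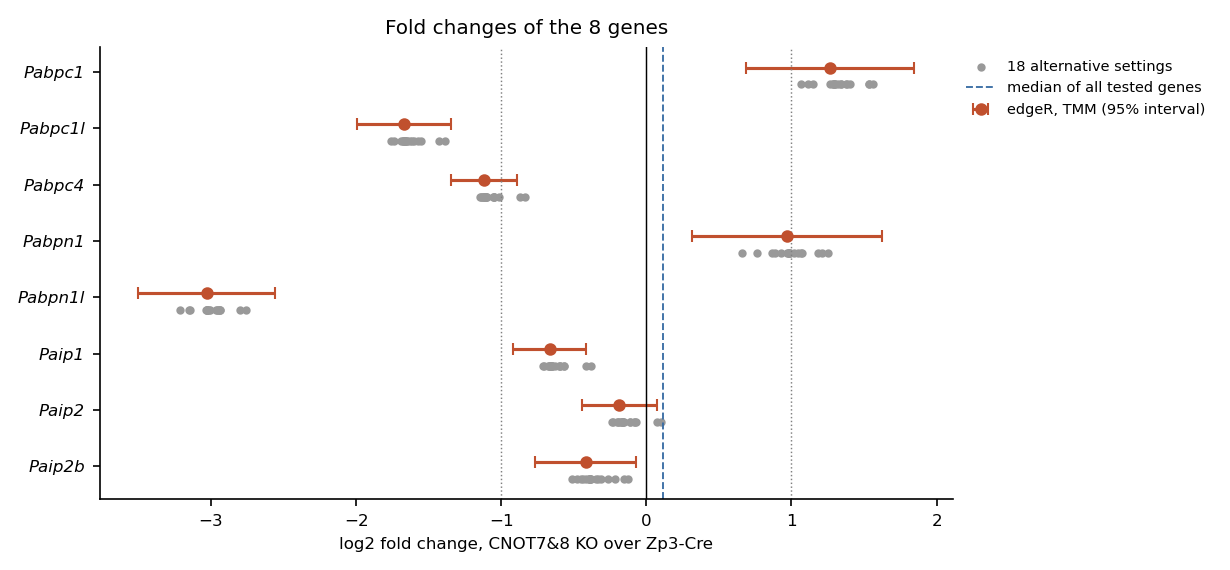
Log2 fold change of each gene, KO over control (x axis), with the 95% interval of edgeR's quasi-likelihood fit (red), the values under 18 alternative settings (grey) and the median of all tested genes (dashed, 0.12); dotted lines mark 2-fold. Pabpc1, Pabpc1l, Pabpc4, Pabpn1l and Paip1 keep their direction and their call in all 18, and Paip2 crosses 0 in 2.

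**Figure D4:**
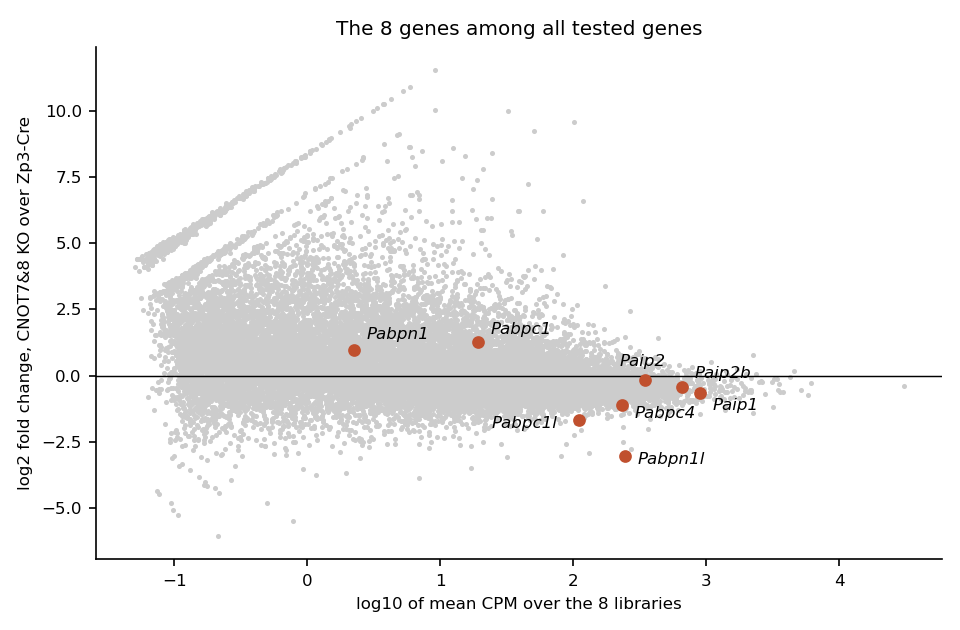
Log2 fold change, KO over control (y axis), against the log10 of the mean CPM over the 8 libraries (x axis) for the 19241 tested genes (grey) and the 8 genes (red). Pabpn1l at -3.03 is the lowest point among genes that average at least 100 CPM, a level that only its control libraries reached. Among all 19241 genes it is the 33rd lowest. Pabpn1 and Pabpc1 lie at low CPM.

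Levels of different genes were compared as CPM per kilobase of the longest annotated transcript. In control oocytes the order was Paip1 (434), Pabpn1l (383), Paip2 (234), Paip2b (190), Pabpc4 (101), Pabpc1l (71.0), Pabpc1 (3.84) and Pabpn1 (0.880 CPM per kilobase). The neighbors Paip1 and Pabpn1l, Pabpn1l and Paip2, and Paip2 and Paip2b overlapped between libraries, and the lower neighbors did not. In KO oocytes the order was Paip1 (274), Paip2 (206), Paip2b (142), Pabpn1l (46.9), Pabpc4 (46.6), Pabpc1l (22.3), Pabpc1 (9.26) and Pabpn1 (1.66 CPM per kilobase), and the only overlapping neighbors were Pabpn1l and Pabpc4. Pabpn1l thus stood second in control oocytes and level with Pabpc4 in KO oocytes. The longest transcript of Pabpc1 is annotated as a retained intron and that of Pabpc4 as a target of nonsense-mediated decay. With the length of all annotated exons in its place, Pabpn1l ranked above Paip1 and Paip2b above Paip2 in control, and the KO order did not change.

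Ratios between genes of the same library do not depend on how libraries are scaled. Per kilobase, Pabpc1l exceeded Pabpc1 by 10.2- to 30.05-fold in control libraries and by 1.30- to 3.29-fold in KO libraries, a 7.87-fold difference between the group means on the log scale. Pabpc4 exceeded Pabpc1 by 18.7- to 37.8-fold in control and 3.14- to 7.06-fold in KO libraries. Both ratios were lower in all KO than in all control libraries, and the oocyte form remained above the somatic form in each of the 8 libraries. Of the summed level of the 3 cytoplasmic genes per kilobase, Pabpc1 made up 2.20 ± 0.879% in control and 12.004 ± 4.34% in KO libraries, Pabpc1l 40.3 ± 4.48% and 28.5 ± 4.02%, and Pabpc4 57.5 ± 3.603% and 59.5 ± 3.58% (SD, n = 4). The share of Pabpc4 overlapped between genotypes, and that of Pabpc1l overlapped once the length of all annotated exons was used. The sum itself went from 176 ± 4.60 to 78.2 ± 4.21 CPM per kilobase under TMM scaling, with no overlap. Unlike the ratios and shares, this sum depends on how libraries are scaled.

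The ratio of Pabpn1l to Pabpn1 per kilobase was 314 to 565 in control and 17.0 to 56.1 in KO libraries, a 14.3-fold difference. Against the other oocyte form, the ratio of Pabpn1l to Pabpc1l, computed after the values had been seen, was 3.997 to 6.39 in control and 1.83 to 2.32 in KO libraries, while the ratio of Pabpc1l to Pabpc4 overlapped between genotypes (0.547 to 0.795 and 0.414 to 0.607). Among the interacting genes, the ratio of the inhibitor Paip2 to the activator Paip1 was 0.490 to 0.585 in control libraries. In KO libraries it was 0.717 to 0.813, 1.41-fold higher and without overlap. The ratio of the other inhibitor, Paip2b, to Paip1 was not computed. Paip2b per Paip2 was 0.658 to 0.926 in control and 0.629 to 0.759 in KO libraries, which overlapped. No test was run on the ratios.

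**Figure D5:**
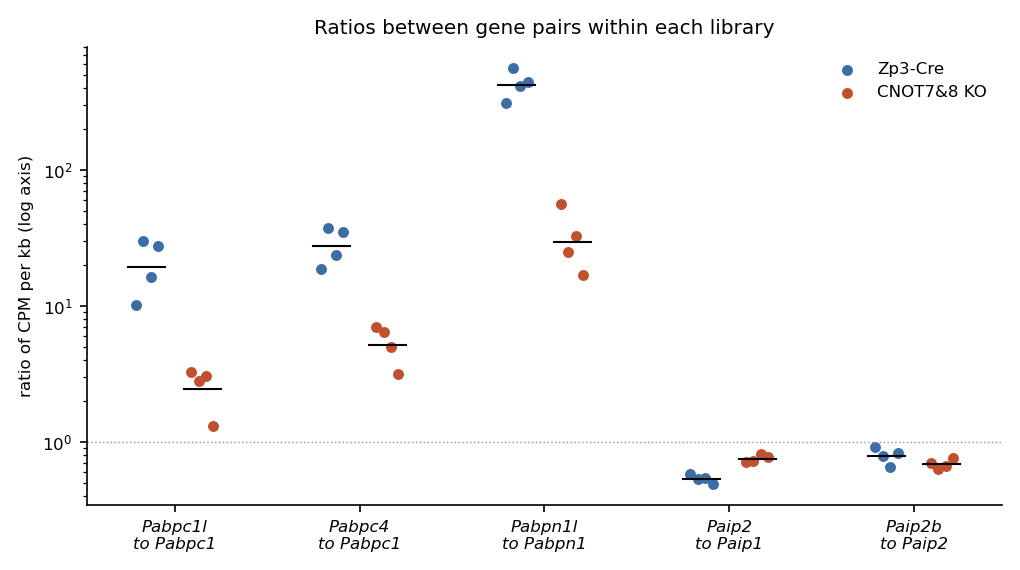
Ratio of CPM per kilobase between 5 pairs of genes in each library (y axis, log scale; control blue, KO red; lines, geometric means). The first 3 ratios are lower in all KO libraries, Paip2 to Paip1 is higher in all KO libraries, and Paip2b to Paip2 overlaps.

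Other poly(A)-binding genes added little RNA, except Zc3h14, which encodes a nuclear zinc finger protein that binds poly(A). It fell from 276 ± 42.6 to 192 ± 17.4 CPM (SD, n = 4), with a log2 fold change of -0.53 and an adjusted p of 0.00329 in edgeR's quasi-likelihood test. Pabpc6 (0.439 ± 0.0794 and 0.661 ± 0.137 CPM) and Pabpc4l (0.222 ± 0.183 and 0.180 ± 0.141 CPM) did not pass the test, with adjusted p-values of 0.252 and 0.750. Pabpc2 had at most 0.0341 CPM in any library, and Pabpc5 had no count, which allows 0.0802 to 0.326 CPM by the floor of 3 counts.

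Proteins that bind the same surface of PABPC through a PAM2 motif include deadenylase adaptors, the release factor eRF3 and RNA-silencing scaffolds. Of 15 such genes, 4 rose and 5 fell past the adjusted p of 0.05, against 31.2% and 24.1% of all genes, with a median log2 fold change of -0.08. The number that fell was 3 with the replicate block and under several scalings and filters. Tob1, an adaptor that bridges PABPC1 and the CCR4-NOT deadenylases, went from 9.47 ± 1.196 to 40.6 ± 3.89 CPM (SD, n = 4), a log2 fold change of 2.10 and an adjusted p of 4.83e-07 in edgeR's quasi-likelihood test. Tnrc6a, a scaffold of microRNA silencing, went from 23.3 ± 3.58 to 71.6 ± 8.58 CPM (1.62 on the log2 scale). Pan3, which brings the PAN2 deadenylase to PABP, fell from 258 ± 64.1 to 144 ± 15.6 CPM (-0.85), and Larp4b, a La-related PABP partner, from 211 ± 26.1 to 130 ± 12.9 CPM (-0.70). These 4 had the smallest p of the list.

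At the other end of the closed loop, 15 genes of the cap-binding side were followed, of which 14 were tested, 3 rose and 6 fell, against 31.2% and 24.1% of all tested genes, with a median log2 fold change of -0.23. Eif4enif1, which encodes the eIF4E transporter 4E-T of stored mRNPs, fell from 413 ± 91.0 to 167 ± 16.6 CPM (SD, n = 4), a log2 fold change of -1.30 and an adjusted p of 1.84e-05 in edgeR's quasi-likelihood test. Eif4e3, a cap-binding relative of eIF4E, fell from 176 ± 24.9 to 85.7 ± 7.42 CPM (-1.04), and the oocyte form Eif4e1b from 456 ± 43.6 to 321 ± 18.7 CPM (-0.51). Eif4ebp1, which encodes an inhibitor of eIF4E, rose at a low level from 0.971 ± 0.299 to 2.96 ± 0.867 CPM (1.56 on the log2 scale). The scaffold gene Eif4g1, whose protein contacts PABP directly, was at 137 ± 15.2 and 129 ± 14.4 CPM and did not pass the test (adjusted p of 0.584 in edgeR's quasi-likelihood test).

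For the gene with the highest mean CPM in each class, the 2 tested genes of at least 1 CPM with the most similar log2 CPM across the 8 libraries were recorded among 13758 such genes. These were Hdac2 and Fbxw13 for Paip1 (Pearson r of 0.999 and 0.998), Cct2 and Gm2830 for Pabpc4 (0.999 and 0.998), and Pfkm and Abcc3 for Pabpn1l (0.995 for both). For each of the 6, all KO values lay under all control values, so the likeness is in large part the group difference that they share, and it is given as a description.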

How the data were processed

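RNA of GV oocytes was measured in 8 libraries, 4 per genotype, and the labels gave each library's group and replicate number. The labels do not say whether libraries came from separate animals, so p-values measure the spread between libraries. The labels name a stranded total RNA kit with Ribo-Zero Gold, whereas the methods name a stranded mRNA kit with ribosomal RNA depletion. The authors mapped reads to GRCm38 with STAR 2.6.1d and deposited raw counts per gene. The submitters' processing notes also list edgeR 3.11. The counting tool, annotation and strand setting are not given in the sources used here.

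The deposited counts were fitted with edgeR 4.0.16 under R 4.3.3. A gene entered the quasi-likelihood test if 2 libraries or more reached 0.2 CPM (TMM scaling, Benjamini-Hochberg adjustment over 19241 genes, all 8 libraries). A DEG passed an adjusted p of 0.05 and changed 2-fold or more. Intervals are 95%. CPM of single genes are counts per TMM-scaled library size. Single genes were also compared by exact permutation of log2 CPM over 70 assignments, whose smallest p is 0.0286, the value of the 5 genes without overlap. Of the gene identifiers, 98.0% were found in GENCODE vM21, which supplied positions, lengths and 3′UTR sequences. Like length for a 3′UTR means 0.8 to 1.25 times its length. Copies were transcripts of other genes with at least 95% identity over 150 bases. The fits were tested on simulated data.

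Alternatives were edgeR's exact test, DESeq2 1.42.0, 4 other scalings, 2 other filters, a replicate block, leaving out each library, and exon length. Leaving out both deviating libraries, the leave-one-out of ratios and marker sums without Cyp19a1 or Pecam1 were added after seeing the data. Named genes were the 8 genes, Cnot7 and Cnot8, the other poly(A)-binding genes, the 4 genes of smallest p in each partner list, the 2 genes most like 3 of the members, and overlapping or copied genes; Eif4g1 and the markers are named after their values were seen. The genes and lists were chosen with earlier results of these data known.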

Additional observations from a re-analysis of the deposited data

Results flagged for a closer look

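Single libraries stood far from the other 3 of their group in 8 of 54 group comparisons over the 27 named genes. Chance would give about 2.7 if the comparisons were independent, but genes of the same library are not. None of the 8 poly(A)-binding and PABP-interacting genes was flagged, although control replicate 1 had the highest or lowest control value for all 8. Of the 8 flagged values, 5 were of control replicate 1. There, Cnot7 was at 1048 CPM (others 886 to 900), Tnrc6a at 28.6 CPM (21.0 to 21.8), Pan3 at 354 CPM (222 to 235) and Eif4e3 at 213 CPM (161 to 167), all above the other control libraries, and Abcc3 at 37.9 CPM (46.6 to 47.6), below them. KO replicate 3 was low for Larp4b at 111 CPM (others 135 to 137) and for Eif4e3 at 74.6 CPM (88.8 to 90.1), and KO replicate 4 was high for Eif4enif1 at 192 CPM (157 to 161). The origin of these deviations was not tested.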

How the results depend on the processing

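The calls and directions of Pabpc1, Pabpc1l, Pabpc4, Pabpn1l and Paip1 held in all 18 alternatives, with log2 fold changes from 1.07 to 1.56, -1.76 to -1.39, -1.14 to -0.84, -3.21 to -2.76 and -0.72 to -0.38. Scaling by total counts alone, by TMM on genes of at least 10 CPM and by the upper quartile moved the median of all genes up by 0.29, 0.25 and 0.10 on the log2 scale, and total counts alone gave 7742 genes that rose and 2620 that fell, against 5997 and 4631. Under the first and second of these, Paip2 turned to 0.10 and 0.072, and Paip2b was no longer called at -0.12 and -0.15, as also under the upper quartile (-0.31) and with at least 1 CPM in 4 libraries (-0.34). Leaving out 1 library gave -0.51 to -0.21 for Paip2b and 0.76 to 1.18 for Pabpn1, and 0.66 for Pabpn1 without both deviating libraries. Members that rose past the adjusted p numbered 1 to 2 over the leave-one-out fits and 1 without both libraries, and DEGs that rose numbered 1 to 2 and were 2 under those 3 scalings and the 1 CPM filter. PAM2 partners that fell numbered 3 to 6 in the leave-one-out fits and 3 under those 3 scalings, the 1 CPM filter, no filter and the replicate block. With the length of all exons, control levels per kilobase were 1.71 for Pabpc1, 61.3 for Pabpc1l, 79.5 for Pabpc4, 0.515 for Pabpn1, 321 for Paip1, 104 for Paip2 and 119 for Paip2b. The causes were not tested beyond the settings named.

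Same-numbered libraries did not deviate together (correlations of -0.07, -0.04, 0.11 and -0.12 across genes). With 4 libraries per group this does not settle whether the numbers pair libraries, and the labels do not say. With the replicate block, 9712 genes passed the adjusted p against 10628, and no call of the 8 genes changed (Pabpn1l -3.00, Pabpn1 0.86, Paip2b -0.38). Depth limits Pabpn1 most, with as few as 14 counts in a library.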
